A study of Mus musculus with 7 samples.

Results

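Peg3, Usp29, Zim1, Snrpn, Ube3a, Ndn, Magel2, Peg12 and Mkrn3 are genes of 2 imprinted regions of mouse chromosome 7, the Peg3 domain (3 of the genes) and the Snrpn domain (6 of the genes). They were taken by name, and all 9 of the 9 were found among the 22556 genes counted in each sample. Chromatin-associated RNA (ChrRNA-seq), which is enriched for RNA still being made, was sequenced from undifferentiated female mouse embryonic stem cells (mESCs) that are hybrids of a domesticus strain, 129/Sv (Dom), and a castaneus strain, CAST/EiJ (Cast). In the line iXist-ChrX-Dom (n = 4 samples) a TetOn promoter replaces the promoter of Xist on the Dom X chromosome, and in iXist-ChrX-Cast (n = 3 samples) on the Cast X chromosome. All 7 samples had received doxycycline at 1 µg/mL for 10 days to induce Xist. The series as analysed here holds no uninduced control, and an effect of induction cannot be read from it. Each line carries 1 clone name in its labels. The study's legends call the samples replicates or replicate experiments, without saying at which step they were separated. The cells were kept in serum and LIF on inactivated mouse fibroblasts, which were depleted by pre-plating before the cells were grown without them for harvest. Which strain was the mother of the cross is not given in the sources used here, so alleles are called Cast and Dom throughout, never maternal or paternal.

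An imprinted gene is transcribed from the allele of only 1 parent, because a DNA methylation mark set in the egg or the sperm is kept on that allele through the divisions of the embryo. In the Peg3 domain the mark lies over the promoter that Peg3 and Usp29 share. In the Snrpn domain it lies at the main Snrpn promoter, and Snrpn, Ndn, Magel2, Mkrn3 and Peg12 are known as genes of the paternal allele, while Ube3a is known for expression from the maternal allele in neurons and from both alleles in most other cells. In cultured mESCs such marks can be lost, and a gene is then read from both alleles. The Cast share used below is the share of a gene's fragments that carry Cast polymorphisms among those that carry Cast or Dom ones. It is near 0% or 100% for a gene read from 1 allele.

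On mm10 the counted stretches, exons and introns together, were chr7:6705959-6730419 on the minus strand for Peg3, chr7:6730582-6967219 on the plus strand for Usp29 and chr7:6675442-6696432 on the minus strand for Zim1. In the Snrpn domain they were chr7:59982501-60140219 on the minus strand for Snrpn and chr7:59228749-59306727 on the plus strand for Ube3a. Peg3, Usp29 and Ube3a overlap genes on the opposite strand only, which the stranded counting keeps apart.

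The promoters are shown because Peg3 and Usp29 start on opposite strands of nearly the same sequence, and because the CG dinucleotides, in capitals, are the letters that carry DNA methylation. Windows run from 250 bases before to 50 bases after the RefSeq start site, on GRCm38.p6, whose coordinates are those of mm10. The Peg3 window (chr7:6730370-6730669, minus strand) and the Usp29 window (chr7:6730333-6730632, plus strand) shared 263 bases, and their start sites lay 164 bp apart. They held 13 and 17 CG dinucleotides, more than 62.1% and 68.6% of 32851 RefSeq windows, whose median was 7.
Peg3: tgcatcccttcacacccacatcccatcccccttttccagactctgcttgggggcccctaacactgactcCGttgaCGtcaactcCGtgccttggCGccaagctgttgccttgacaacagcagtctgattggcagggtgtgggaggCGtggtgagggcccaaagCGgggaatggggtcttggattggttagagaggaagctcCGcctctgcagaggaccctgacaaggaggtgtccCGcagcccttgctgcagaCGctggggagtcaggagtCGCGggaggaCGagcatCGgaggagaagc
Usp29: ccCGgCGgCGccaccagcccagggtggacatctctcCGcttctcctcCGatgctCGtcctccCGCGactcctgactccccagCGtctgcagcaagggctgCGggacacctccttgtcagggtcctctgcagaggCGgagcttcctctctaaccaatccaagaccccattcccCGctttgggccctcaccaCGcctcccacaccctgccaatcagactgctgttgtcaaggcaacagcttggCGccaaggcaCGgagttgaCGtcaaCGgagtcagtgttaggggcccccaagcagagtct

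The Zim1 window (chr7:6696383-6696682, minus strand) is shown as that of the third gene of the domain, 9527 bp from the nearest end of Peg3. It held 20 CG dinucleotides, more than 73.5% of all windows. It contained 1 match, on either strand, to TGCCGC, the letters bound by ZFP57 when methylated, which 11.6% of all windows contain. The Peg3 and Usp29 windows contained 0 matches.
Zim1: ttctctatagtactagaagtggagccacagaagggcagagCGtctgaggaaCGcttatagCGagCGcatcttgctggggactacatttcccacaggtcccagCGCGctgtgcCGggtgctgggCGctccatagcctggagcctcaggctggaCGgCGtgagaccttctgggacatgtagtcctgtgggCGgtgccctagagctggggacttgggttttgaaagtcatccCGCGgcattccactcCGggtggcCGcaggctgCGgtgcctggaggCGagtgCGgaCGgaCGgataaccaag

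For the Snrpn domain 3 windows are shown, those of the inner and of an upstream Snrpn start, since the counted fragments come from between them, and that of Ube3a. RefSeq gives 4 Snrpn starts in all. The inner Snrpn window (chr7:60005150-60005449, minus strand) held 7 CG dinucleotides, more than 47.9% of all windows, and 1 match to TGCCGC. The upstream window (chr7:60140176-60140475, minus strand) held 3 CG dinucleotides, more than 23.3% of all windows, and 0 matches. The Ube3a window (chr7:59228500-59228799, plus strand) held 29 CG dinucleotides, more than 87.1% of all windows, and 1 match to the YY1 letters GCCATNTT, which 6.05% of windows contain. A match is a run of letters and not a sign of binding.
Snrpn, inner start: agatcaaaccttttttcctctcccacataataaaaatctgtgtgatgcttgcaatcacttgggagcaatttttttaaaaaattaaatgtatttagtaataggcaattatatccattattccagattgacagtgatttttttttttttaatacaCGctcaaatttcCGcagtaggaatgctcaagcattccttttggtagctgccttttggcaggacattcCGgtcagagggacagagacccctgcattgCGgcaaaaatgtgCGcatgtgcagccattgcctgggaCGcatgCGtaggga
Snrpn, upstream start: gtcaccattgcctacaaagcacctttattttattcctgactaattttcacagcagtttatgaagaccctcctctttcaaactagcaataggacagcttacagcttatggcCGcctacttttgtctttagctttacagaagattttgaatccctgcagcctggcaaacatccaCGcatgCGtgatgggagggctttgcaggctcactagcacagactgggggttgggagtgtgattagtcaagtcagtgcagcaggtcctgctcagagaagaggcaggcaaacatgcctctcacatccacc
Ube3a: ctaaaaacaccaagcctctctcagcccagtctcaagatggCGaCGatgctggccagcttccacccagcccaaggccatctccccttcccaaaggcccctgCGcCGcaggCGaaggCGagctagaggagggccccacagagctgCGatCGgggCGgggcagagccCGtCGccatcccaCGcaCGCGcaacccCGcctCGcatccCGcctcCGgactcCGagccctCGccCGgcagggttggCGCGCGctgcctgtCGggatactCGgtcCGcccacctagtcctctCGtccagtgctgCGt

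Counted fragments numbered 14877384 to 24309806 per sample, and 44.2% to 46.4% of them were assigned to an allele. The median gene of the autosomes other than 1, 5, 8, 12 and 14, whose alleles are unevenly represented, had a Cast share of 46.3% to 46.9% per sample, and the other 971 genes of chromosome 7 with enough allelic fragments had a median of 45.5% to 47.0%. A share of about 46.6% is therefore the level of a typical gene in these files. All 10 pluripotency markers were detected, at 1266 to 1595 CPM (counts scaled to a common library size) in sum in iXist-ChrX-Dom and 1291 to 1659 in iXist-ChrX-Cast. Of the 10, 1 passed the edgeR test between the lines, Tdgf1, lower in iXist-ChrX-Dom (log2 fold change -0.52, adjusted p = 0.0365). With replicate number as a block 2 passed, both lower there, Klf4 (-0.53, adjusted p = 0.0040) and Tdgf1 (-0.52, adjusted p = 0.00323). Of all tested genes 2.92% and 11.8% passed these 2 fits. Of 8 neural markers Sox1 was at 0 in every sample, while the list summed to 162 to 218 CPM in iXist-ChrX-Dom and 127 to 173 CPM in iXist-ChrX-Cast, most of it from Map2. None of the 5 neural markers tested passed the edgeR test between the lines, and 3 did with replicate number as a block, each higher in iXist-ChrX-Dom, Pax6 (log2 fold change 1.29, adjusted p = 2.13e-06), Nes (0.66, adjusted p = 0.00397) and Map2 (0.34, adjusted p = 0.0445). All 12 fibroblast markers were detected as well, at a summed 106 to 151 CPM in iXist-ChrX-Dom and 106 to 130 CPM in iXist-ChrX-Cast. Their pooled Cast share was 23.2% to 31.8% and 21.0% to 25.6%, and 5 of the 10 that had enough allelic fragments lay under 25% (Col1a2, Col3a1, Prrx1, Lox and Col5a2). The part of fibroblast or neural RNA in the values below was not tested. In bulk samples fewer cells of a type and less RNA per cell cannot be told apart. Replicates 1 and 2 of both lines stood apart from the later ones. With the set added beside the line, 30.3% of 15186 tested genes differed between the sets (edgeR quasi-likelihood test, adjusted p under 0.05). For replicates 3 and 4 of iXist-ChrX-Dom the description field reads d1, although their titles and treatment fields read 10 days.

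Peg3 and Ube3a stood well above the other genes. The scale used here is CPM per kb of counted gene, exons and introns together. Counted lengths ran from 1.65 kb for Ndn to 237 kb for Usp29, and the scale does not part finished RNA from introns. On it Ube3a was at 8.73 ± 1.00 and Peg3 at 7.91 ± 0.711 (SD, n = 7 samples), and their ranges over samples overlapped. Of the 20490 genes with any count, Ube3a lay above 96.5% and Peg3 above 95.9%. Mkrn3 followed at 1.36 ± 0.456, Ndn at 0.979 ± 0.303, Magel2 at 0.656 ± 0.236 and Peg12 at 0.488 ± 0.0794 CPM per kb, and in this group of 4 the ranges of neighbours in the order overlapped. Zim1 was at 0.229 ± 0.0843, Snrpn at 0.111 ± 0.0136 and Usp29 at 0.0638 ± 0.0173 CPM per kb, and the ranges of neighbours overlapped here too. The order thus had 2 breaks at which no sample overlapped, between Peg3 and Mkrn3 and between Peg12 and Zim1. The value of Snrpn covers only 135063 of its 157719 bp, since the other 22656 bp lie in Snurf on the same strand, and fragments that overlap both genes were not counted. Snurf itself, the gene that shares the Snrpn transcript, had 0 to 5 fragments per sample.

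**Figure D1:**
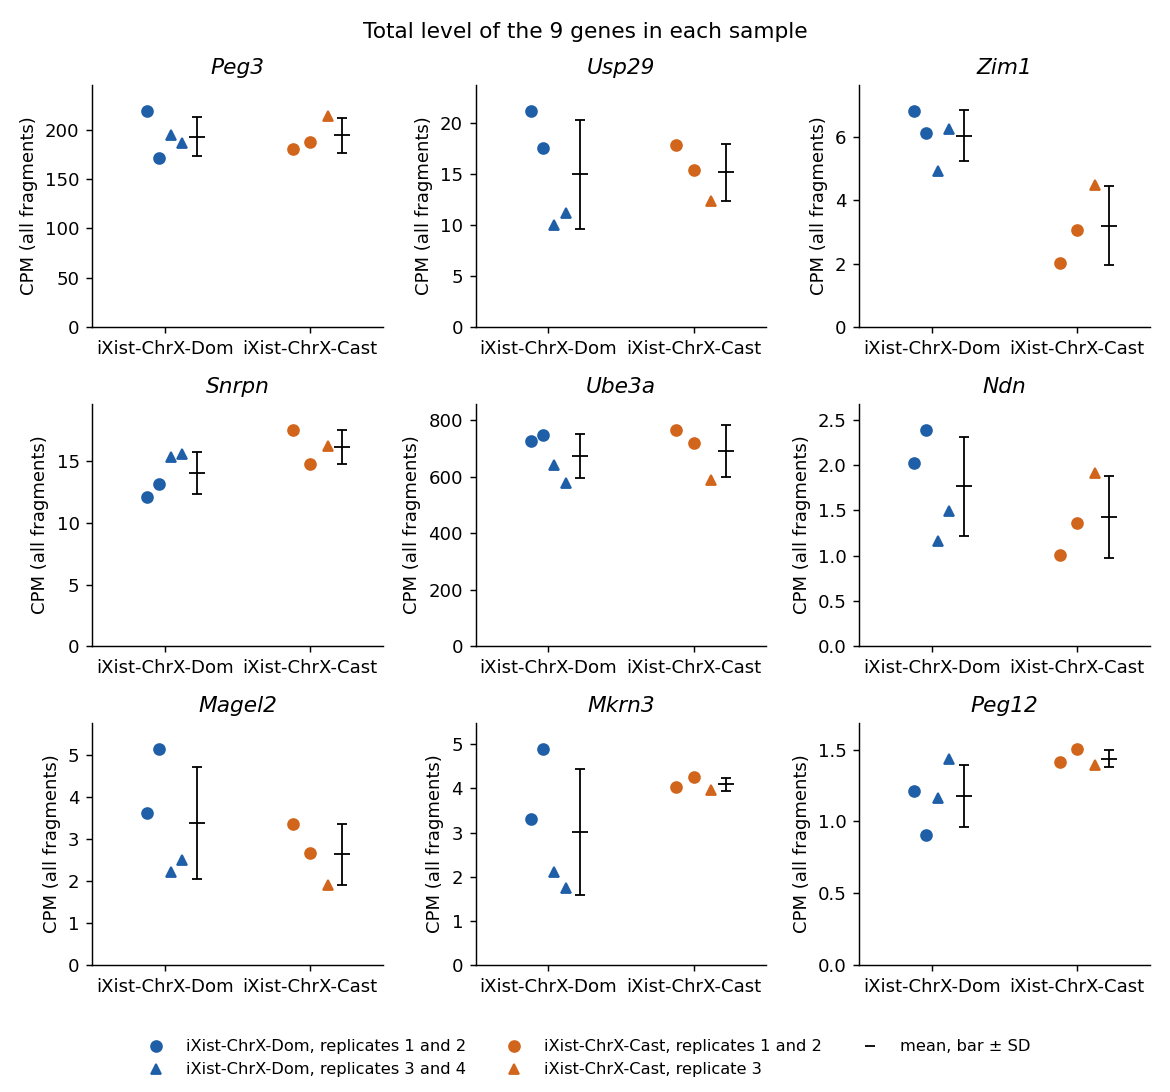
Total level of the 9 genes in CPM of all counted fragments (y axis, from 0) in the samples of each line (x axis). Circles are replicates 1 and 2, triangles the later replicates, and black marks are the mean ± SD. Zim1 is the gene whose 4 iXist-ChrX-Dom samples (4.91 to 6.81 CPM) all sit above the 3 iXist-ChrX-Cast samples (2.02 to 4.49 CPM). Usp29, Ube3a, Magel2 and Mkrn3 are lowest in the triangles of both lines, Mkrn3 only narrowly in iXist-ChrX-Cast (3.98 CPM against 4.03 and 4.26).

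Whether the genes differed in total level between the lines was asked of all fragments. None of the 9 passed the edgeR test at an adjusted p under 0.05, against a background of 2.92% of 15186 genes. That background of 443 genes was unsteady, and fell to 18 genes without iXist-ChrX-Cast replicate 2. Zim1 alone of the 9 had an unadjusted p under 0.05, a looser threshold for which the share of all genes is not given here. Zim1 encodes a zinc-finger protein known as a gene of the maternal allele. It was at 6.81, 6.13, 4.91 and 6.25 CPM in iXist-ChrX-Dom replicates 1 to 4 and at 2.02, 3.06 and 4.49 CPM in iXist-ChrX-Cast replicates 1 to 3. The lines did not overlap, and 8.89% of all tested genes had every iXist-ChrX-Dom sample above every iXist-ChrX-Cast sample in the same way. The log2 fold change was 0.89 (SE 0.25), with an adjusted p = 0.0841. With replicate number as a block, the log2 fold change stayed at 0.89 and the adjusted p was 0.0104, a fit that called 11.8% of genes. DESeq2 gave an adjusted p of 0.0118, and in the simulated data described below 14.4% of its calls were false. Within replicates 1 and 2 alone the log2 fold change was 1.26 (adjusted p = 0.00706), and without iXist-ChrX-Cast replicate 3, the highest of its line, it was 1.18 (adjusted p = 0.0180). In the other direction, it was 0.68 (adjusted p = 0.195) without iXist-ChrX-Cast replicate 1 and 0.86 (adjusted p = 0.319) without replicate 2 of that line, and in all Zim1 passed in 5 of 16 settings. The share of all genes called is not given here for DESeq2, for replicates 1 and 2 alone or without iXist-ChrX-Cast replicate 3. Over all settings the calls ran from 18 to 2398 genes. The Zim1 counts were small, 30 to 152 fragments per sample.

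Neither of the other genes of the Peg3 domain passed the test of total level between the lines. Peg3, a zinc-finger gene of the paternal allele, was at 219, 172, 194 and 186 CPM in iXist-ChrX-Dom and at 181, 187 and 214 CPM in iXist-ChrX-Cast. The groups overlapped throughout, and the log2 fold change was -0.033 (SE 0.10, adjusted p = 0.917). Usp29, which encodes a ubiquitin-specific protease, was at 21.2, 17.6, 10.0 and 11.2 CPM in iXist-ChrX-Dom and at 17.9, 15.4 and 12.3 CPM in iXist-ChrX-Cast. Its log2 fold change between the lines was -0.049 (SE 0.26, adjusted p = 0.952), but in both lines the later replicates were the lowest. Between the sets Usp29 was lower in the later replicates by a log2 difference of -0.71 (SE 0.13, adjusted p = 0.000949), in a comparison added after its values had been seen. Peg3, which starts from the same promoter, had a log2 difference between the sets of 0.048 (SE 0.090, adjusted p = 0.718).

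In the Snrpn domain no gene passed the test of total level between the lines under any alternative tried. Snrpn, which encodes the spliceosome protein SmN, was at 12.1, 13.2, 15.4 and 15.6 CPM in iXist-ChrX-Dom and at 17.5, 14.8 and 16.2 CPM in iXist-ChrX-Cast. These counts, and the comparison below, cover only the part of the gene upstream of Snurf, as the shared part was not counted. Only iXist-ChrX-Cast replicate 2 lay within the range of the other line, and the log2 fold change was -0.23 (SE 0.15, adjusted p = 0.484). Ube3a, an E3 ubiquitin ligase gene, was at 726, 747, 641 and 577 CPM in iXist-ChrX-Dom and at 766, 719 and 587 CPM in iXist-ChrX-Cast (log2 fold change -0.070, SE 0.14, adjusted p = 0.856). As for Usp29, its later replicates were the lowest of both lines, with a log2 difference between the sets of -0.32 (SE 0.092, adjusted p = 0.0167).

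The remaining 4 genes, Ndn (chr7:62348276-62349927, plus strand), Magel2 (chr7:62376978-62381640, plus strand), Mkrn3 (chr7:62417592-62420139, minus strand) and Peg12 (chr7:62461870-62464510, minus strand), are short and gave few fragments. Ndn and Magel2, both of the MAGE family, had 15 to 58 and 37 to 125 fragments per sample, Mkrn3, a makorin zinc-finger gene known for its part in the timing of puberty, 34 to 119, and Peg12, of the FRAT family of the Wnt pathway, 21 to 30. Magel2 was at 3.63, 5.14, 2.22 and 2.51 CPM in iXist-ChrX-Dom and at 3.36, 2.66 and 1.91 CPM in iXist-ChrX-Cast. Mkrn3 was at 3.32, 4.90, 2.11 and 1.74 CPM in iXist-ChrX-Dom and at 4.03, 4.26 and 3.98 CPM in iXist-ChrX-Cast. Ndn ranged from 1.16 to 2.39 CPM in iXist-ChrX-Dom and from 1.01 to 1.91 CPM in iXist-ChrX-Cast, and Peg12 from 0.905 to 1.44 CPM and from 1.39 to 1.50 CPM. In iXist-ChrX-Dom replicates 1 and 2 exceeded replicates 3 and 4 for Ndn, Magel2 and Mkrn3. Between the sets, with the line in the fit, Magel2 had a log2 difference of -0.82 (SE 0.21, adjusted p = 0.00769) and Mkrn3 of -0.67 (SE 0.23, adjusted p = 0.0347). Ndn (-0.22, SE 0.28, adjusted p = 0.588) and Peg12 (0.13, SE 0.26, adjusted p = 0.736) did not pass. In total, 4 of the 9 genes passed this test, which was added after the values had been seen, beside the 30.3% of all genes given above. The 4 were Usp29, Ube3a, Magel2 and Mkrn3, each lower in the later replicates, Mkrn3 mainly in those of iXist-ChrX-Dom.

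The allelic question was which of the genes were read from both chromosomes. Of the 9, 5 had at least 10 allelic fragments in more than 80% of the samples, Peg3, Usp29, Zim1, Snrpn and Ube3a. The other 4 gave 14 to 88 allelic fragments in all 7 samples together. The alleles differed for 4 of the 5 in iXist-ChrX-Dom and for 3 of the 5 in iXist-ChrX-Cast (edgeR quasi-likelihood test with a term per sample, adjusted p under 0.05). The background was high, 57.1% of 12932 genes in iXist-ChrX-Dom (28.8% Cast higher, 28.2% Cast lower) against 51.8% for iXist-ChrX-Cast (24.1% and 27.7%), and the sizes of the differences are given beside the calls. The log2 ratios below come from this test, whose scaling sets the typical gene near 0. They therefore differ from the ratio of the allele levels printed beside them.

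**Figure D2:**
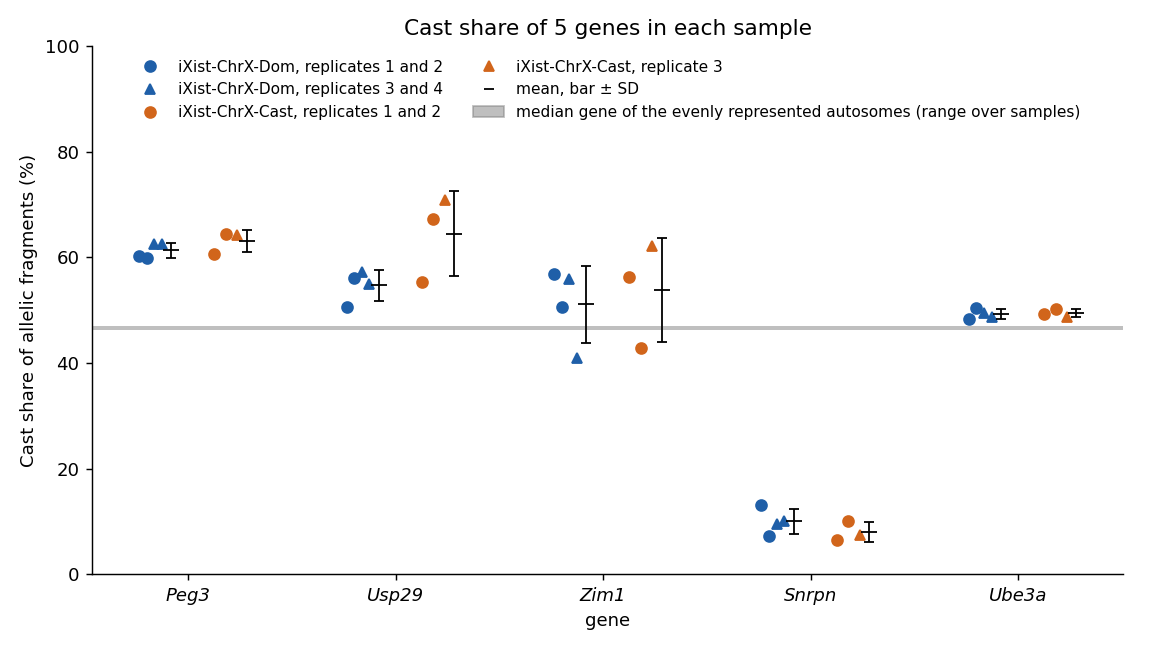
Cast share in percent of allelic fragments (y axis) of the 5 genes with enough allelic fragments (x axis), 1 point per sample, blue for iXist-ChrX-Dom and orange for iXist-ChrX-Cast, with mean ± SD in black. The grey band is the range over samples of the median gene of the evenly represented autosomes (46.3% to 46.9%). Snrpn, counted only upstream of Snurf, sits between 6.43% and 13.2% in every sample, Peg3 between 59.9% and 64.3%, and Ube3a between 48.4% and 50.5%.

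Snrpn was read almost wholly from the Dom allele in both lines. Its Cast share was 13.2%, 7.32%, 9.45% and 10.1% in iXist-ChrX-Dom (10.0% ± 2.41, SD, n = 4) and 6.43%, 10.0% and 7.46% in iXist-ChrX-Cast (7.97% ± 1.84, SD, n = 3). In allelic fragments on the same CPM scale the Dom allele was at 8.99 ± 1.07 and the Cast allele at 0.985 ± 0.170 in iXist-ChrX-Dom, and at 9.64 ± 1.09 and 0.822 ± 0.114 in iXist-ChrX-Cast. The log2 ratio of Cast over Dom was -3.05 (SE 0.14, adjusted p = 2.06e-14) and -3.38 (SE 0.18, adjusted p = 3.16e-13). Over all 7 samples 128 of 1407 allelic fragments were Cast, a pooled share of 9.10% with a 95% Wilson interval of 7.70% to 10.7% that covers counting error only. Among autosomal genes 0.920% lay at or below the Snrpn mean and 4.36% had a mean Cast share under 25%. The difference of the log2 ratio between the lines was 0.33 (SE 0.28, adjusted p = 0.584). These values describe the upstream part of the gene, which is the part that was counted. Some fibroblast markers in the same samples had as low a Cast share. Col1a2 was at 9.34 to 15.3 CPM with a pooled share of 9.19%, and Col3a1 at 4.43 to 9.95 CPM with 9.78%. The 10 fibroblast markers with enough allelic fragments had mean shares of 8.93% to 41.4%, with a median of 27.0%. The part of fibroblast RNA in the Snrpn share was not tested.

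Peg3 gave fragments from both alleles with more from Cast. Its Cast share was 60.2%, 59.9%, 62.5% and 62.5% in iXist-ChrX-Dom (61.3% ± 1.43, SD, n = 4) and 60.7%, 64.3% and 64.2% in iXist-ChrX-Cast (63.1% ± 2.08, SD, n = 3). All 7 samples lay above the highest sample median of the evenly represented autosomes, 46.9%. At 1169 to 2017 allelic fragments per sample the widest 95% Wilson interval of a single sample, that of iXist-ChrX-Cast replicate 1, ran from 57.8% to 63.4%. The Cast allele was at 51.2 ± 3.70 and the Dom allele at 32.3 ± 2.57 CPM in iXist-ChrX-Dom, and at 51.9 ± 6.39 and 30.4 ± 3.05 in iXist-ChrX-Cast. The log2 ratio was 0.80 (SE 0.049, adjusted p = 2.68e-12) and 0.92 (SE 0.059, adjusted p = 8.77e-12), and the difference between the lines was -0.12 (SE 0.077, adjusted p = 0.411). A mean Cast share at or above that of Peg3 was found for 5.05% of genes on the evenly represented autosomes, 5.15% of those on chromosome 7 and 8.06% of all autosomal genes.

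Usp29 leaned to Cast as well, less evenly between samples. Its Cast share was 50.6%, 56.1%, 57.3% and 55.0% in iXist-ChrX-Dom (54.7% ± 2.93, SD, n = 4) and 55.4%, 67.2% and 70.8% in iXist-ChrX-Cast (64.4% ± 8.06, SD, n = 3). The ranges of the lines overlapped only through iXist-ChrX-Cast replicate 1. The Cast allele of Usp29 was at 3.44 ± 0.817 CPM and the Dom allele at 2.88 ± 0.864 CPM in iXist-ChrX-Dom, against 4.38 ± 0.218 and 2.51 ± 0.999 CPM in iXist-ChrX-Cast. The log2 ratio was 0.39 (SE 0.14, adjusted p = 0.0218) in iXist-ChrX-Dom and 0.99 (SE 0.17, adjusted p = 4.25e-05) in iXist-ChrX-Cast. The call in iXist-ChrX-Dom held in 9 of 17 settings. It was lost with DESeq2 (adjusted p = 0.132), with limma (adjusted p = 0.0571), without replicate 2, 3 or 4 of that line (adjusted p = 0.0593 to 0.116), within replicates 1 and 2 (adjusted p = 0.114) and without iXist-ChrX-Dom replicates 3 and 4 (adjusted p = 0.151). With the same library size for both alleles, so that a share of 50% is set to 0, the log2 ratio of Usp29 in iXist-ChrX-Dom was 0.26 (adjusted p = 0.127), so its call there rests on the scaling. The difference between the lines, -0.60 (SE 0.23), had an unadjusted p = 0.0144 and an adjusted p = 0.0762, and it passed in 2 of 17 settings. Without iXist-ChrX-Cast replicate 1 it was -0.92 (adjusted p = 0.00740), without replicate 2 of that line -0.50 (adjusted p = 0.306) and without replicate 3 -0.44 (adjusted p = 0.275).

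**Figure D3:**
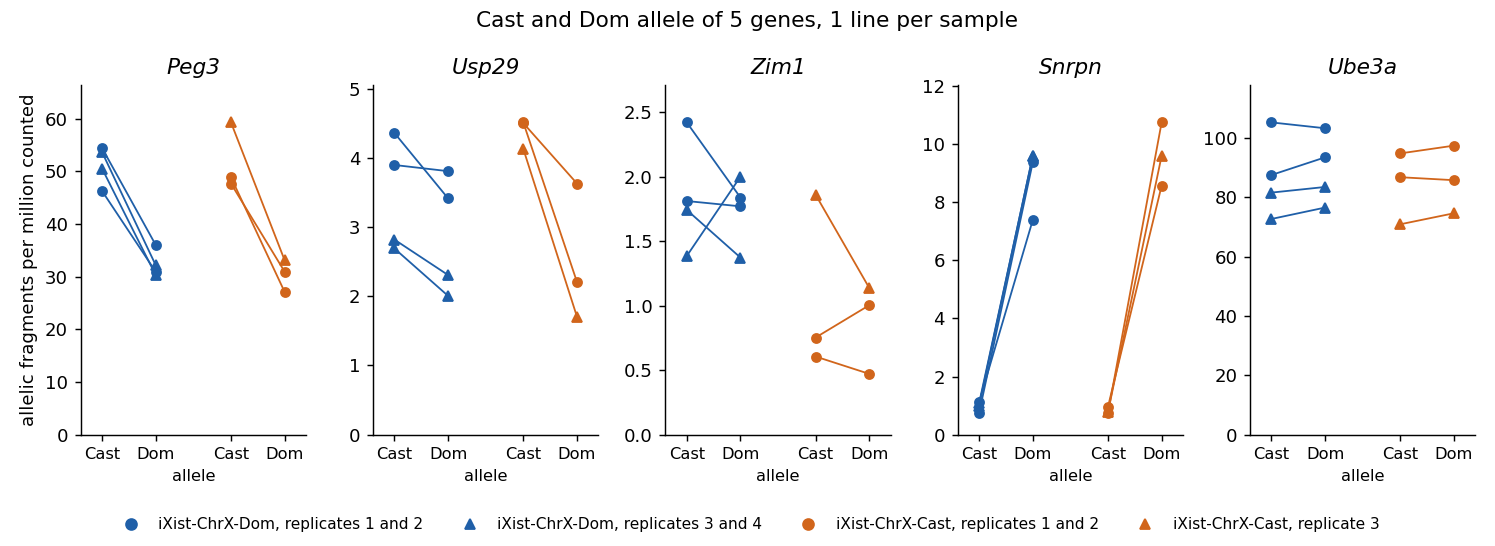
Allelic level in CPM of all counted fragments (y axis, from 0, a scale of its own for each gene) of the Cast and Dom alleles (x axis) of 5 genes, with a line joining the alleles of 1 sample, blue for iXist-ChrX-Dom and orange for iXist-ChrX-Cast. The lines of Peg3 fall from Cast to Dom in all 7 samples, those of Snrpn rise in all 7 samples, and those of Zim1 run in both directions.

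Zim1, next to Peg3 and known for the opposite parental allele, passed the test for neither allele. Its Cast share was 56.8%, 50.6%, 55.9% and 40.9% in iXist-ChrX-Dom (51.1% ± 7.31, SD, n = 4) and 56.3%, 42.9% and 62.1% in iXist-ChrX-Cast (53.7% ± 9.85, SD, n = 3). The log2 ratio of Cast over Dom was 0.22 (SE 0.19, adjusted p = 0.344) and 0.41 (SE 0.30, adjusted p = 0.272), on 16 to 95 allelic fragments per sample. The pooled share over all samples was 52.4%, with a 95% Wilson interval of 47.6% to 57.2% that covers counting error only. Single samples ran from 40.9% to 62.1%, more widely than that interval, and the highest lay within the range of Peg3. The test, which uses the spread between samples, set Zim1 apart from the typical gene in neither line. By allele, Zim1 was higher on average in iXist-ChrX-Dom for both, where the Cast allele was at 1.84 ± 0.430 and the Dom allele at 1.74 ± 0.266 CPM, against 1.07 ± 0.685 and 0.870 ± 0.352 in iXist-ChrX-Cast.

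Ube3a gave fragments evenly from both alleles. Its Cast share was 48.4%, 50.5%, 49.4% and 48.7% in iXist-ChrX-Dom (49.2% ± 0.935, SD, n = 4) and 49.3%, 50.3% and 48.7% in iXist-ChrX-Cast (49.4% ± 0.792, SD, n = 3). With 2818 to 5068 allelic fragments per sample it was the most precisely measured of the 5 genes. The log2 ratio was 0.095 (SE 0.038, adjusted p = 0.0389) in iXist-ChrX-Dom and 0.11 (SE 0.045, adjusted p = 0.0539) in iXist-ChrX-Cast. Its sign rests on the scaling, which sets the typical gene to 0. With the same library size for both alleles, so that a share of 50% is set to 0, the log2 ratio was -0.042 and -0.031 and passed the test in neither line. The calls on either side of the threshold were unsteady, and Ube3a passed in 6 of 17 settings in iXist-ChrX-Dom (adjusted p = 0.00157 to 0.348) and in 11 of 17 in iXist-ChrX-Cast (adjusted p = 0.00361 to 0.581). Without replicate 2 of the line itself the adjusted p was 0.274 and 0.313. The difference between the lines was -0.012 (SE 0.060, adjusted p = 0.952). None of the 5 genes passed the test of that difference, with edgeR, limma or DESeq2, against an edgeR background of 17.4% at an adjusted p under 0.05. Usp29 alone had an unadjusted edgeR p under 0.05, a looser threshold for which the share of all genes is not given here.

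For the 4 genes with few allelic fragments the shares are pooled over samples and carry counting error only. Mkrn3 had 30 Cast fragments of 88, a share of 34.1% (95% Wilson interval 25.04% to 44.5%). In iXist-ChrX-Dom the Cast fragments of Mkrn3 numbered 4 of 15, 5 of 15, 2 of 10 and 0 of 4 in replicates 1 to 4, and in iXist-ChrX-Cast 3 of 8, 11 of 18 and 5 of 18. With a filter of at least 1 allelic fragment its log2 ratio was -1.43 (SE 0.53, adjusted p = 0.0204) in iXist-ChrX-Dom, where 7865 of 19694 genes passed. In iXist-ChrX-Cast it was -0.24 (SE 0.51, adjusted p = 0.801), where 6966 of 19694 genes passed. The difference of Mkrn3 between the lines did not pass (adjusted p = 0.484). With this filter Ndn, Magel2 and Peg12 passed in neither line (adjusted p = 0.633 to 0.984). Peg12 had 24 Cast fragments of 56 (42.9%, 30.8% to 55.9%), Magel2 26 of 51 (51.0%, 37.7% to 64.1%) and Ndn 8 of 14 (57.1%, 32.6% to 78.6%). The intervals of Mkrn3, Peg12, Magel2 and Ndn lay above the interval of Snrpn, and those of Peg12, Magel2 and Ndn included 46.6%.

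The genes around them were taken within 1 Mb of each domain. Around the Peg3 domain 13 of 39 neighbours had enough allelic fragments, and 10 of the 13 had a pooled Cast share of 25% to 75%, a range that holds the mean share of 94.5% of the genes of chromosome 7. The nearest of the 13 on either side were Zfp28 at 16.9% and Zfp954 at 50.3%, with gene middles -340 kb and 388 kb from the Peg3 start. Zfp772 (89.4%) and Vmn2r29 (81.3%) lay further out. The pooled shares of Peg3 and Usp29 were 62.0% and 58.4%, and of the 13 neighbours 8 lay below 50% and 5 above it. Around the Snrpn domain 4 of 6 such neighbours lay between 25% and 75%. D7Ertd715e (chr7:59969576-59974431, minus strand) is a noncoding transcript whose middle lies -168 kb from the Snrpn start. It lies on the strand of Snrpn, just past the Snrpn end at 59982501. With 4810 to 12775 fragments per sample it had a Cast share of 48.4%. A230057D06Rik and A330076H08Rik, noncoding transcripts between Snrpn and Ndn, had Cast shares of 13.1% (8.77% to 17.9% per sample) and 17.7%. They were singled out after their values had been seen. Of a list of 13 other genes of the region, 12 were analysed here and 10 had enough allelic fragments, each with a mean Cast share of 25% to 75% and with a median of 48.7%, as most genes have. In total level 1 of 11 tested differed between the lines, Atp10a, a phospholipid transporter gene, higher in iXist-ChrX-Dom by a log2 fold change of 0.68 (SE 0.10, adjusted p = 0.0133). Of the 4 other genes listed for the Peg3 domain Zim3 had 9 to 29 fragments per sample, and the others were not analysed here.

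**Figure D4:**
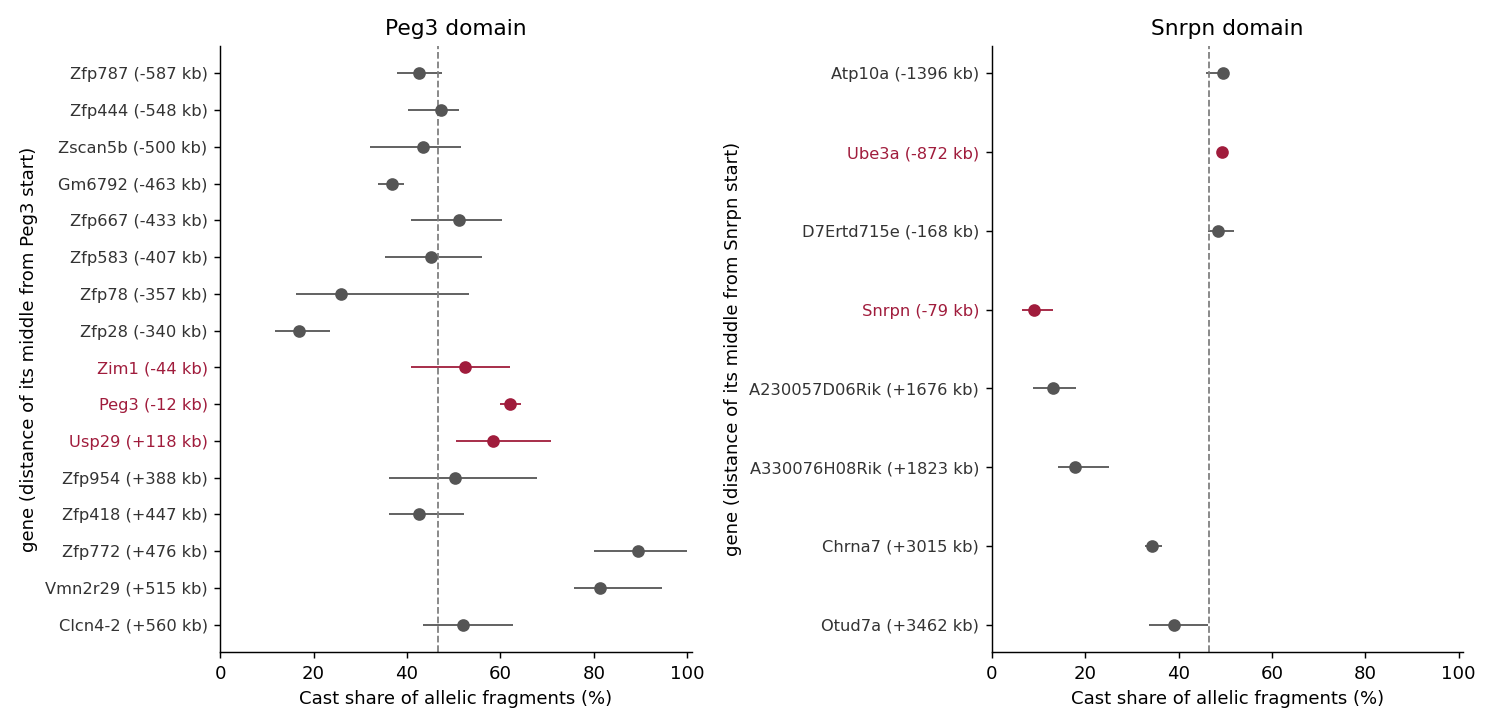
Cast share in percent of allelic fragments (x axis) of the genes with enough allelic fragments in and within 1 Mb of each domain, in chromosome order (y axis, with the distance in kb of the gene's middle from the Peg3 or Snrpn start, positive towards higher coordinates). Points are shares pooled over the 7 samples, bars run from the lowest to the highest sample, red marks the named genes and the dashed line is the mean over samples of the median gene of the evenly represented autosomes. Snrpn (9.10%), counted only upstream of Snurf, lies with A230057D06Rik (13.1%) and A330076H08Rik (17.7%), while D7Ertd715e and Ube3a lie near 50%.

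Other imprinted genes and the genes that keep the marks were listed for comparison. Of 14 genes known for paternal expression elsewhere in the genome 10 had enough allelic fragments, and all 10 had mean Cast shares between 27.2% and 59.0%, where 93.8% of autosomal genes lie between 25% and 75%, among them Kcnq1ot1 (pooled share 45.9%), Peg10 (59.0%), Impact (54.3%) and Mest (54.6%). Of 10 genes known for maternal expression 7 had enough, and 4 of them, H19, Igf2r, Grb10 and Cobl, had pooled shares of 33.9% to 44.8%. Meg3 (85.4%), Rian (84.4%) and Mirg (86.1%), noncoding genes of chromosome 12, whose alleles are unevenly represented, lay above 75%. Of the 10 genes for imprint upkeep, among them Zfp57, Trim28, Dnmt1 and Uhrf1, all 10 were tested in total level between the lines and none passed, with a median log2 fold change of -0.011. Zfp57, whose protein binds methylated imprints, was at 194 to 290 CPM over the 7 samples.

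**Figure D5:**
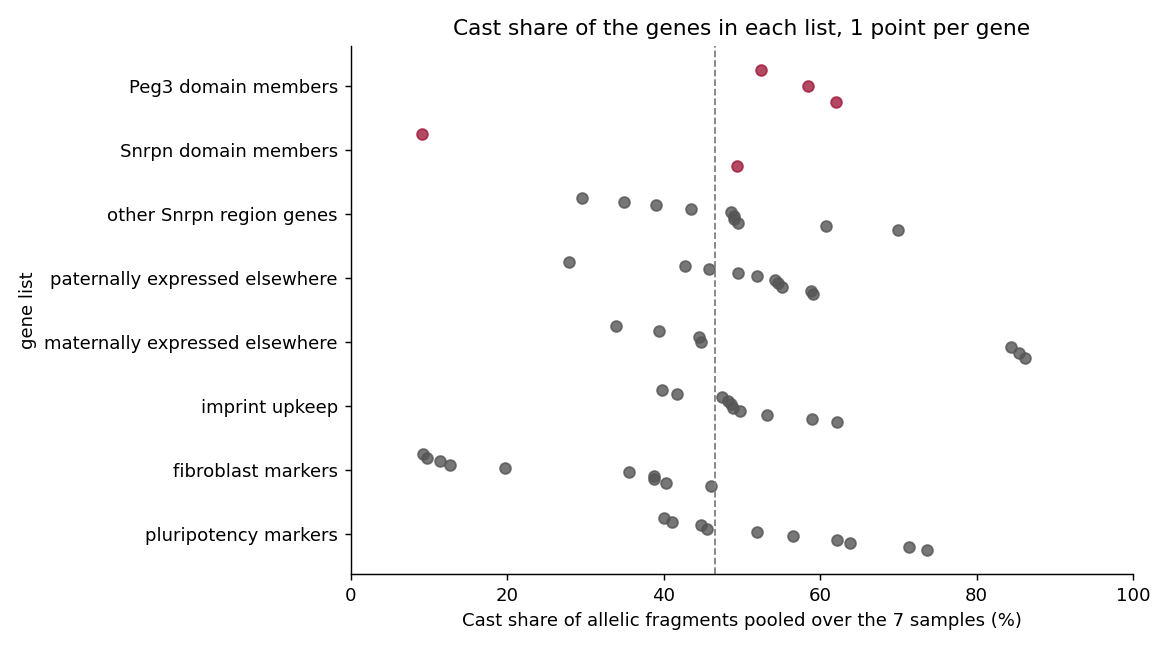
Cast share in percent of allelic fragments pooled over the 7 samples (x axis) of the genes with enough allelic fragments in each list (y axis), 1 point per gene, with the 5 named genes in red and the mean over samples of the median gene of the evenly represented autosomes as a dashed line. Snrpn (9.10%), counted only in its part upstream of Snurf, lies below all 10 genes of the paternally expressed list. It is at the level of the lowest fibroblast markers, Col1a2 (9.19%) and Col3a1 (9.78%), in a list with a median mean share of 27.0%.

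The genes whose total level moved most like Peg3 over the 7 samples were Tpp1, Gm7102 and Rpl7l1, with root-mean-square differences of 0.048, 0.050 and 0.053 in centred log2 CPM among 13972 genes. For Snrpn they were Atf7ip2, Peak1 and Jade3 (0.061 each). Peg3 itself deviated from its mean by 0.12 and Snrpn by 0.17 on this scale, so with 7 samples such likeness is a description only.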

How the data were processed

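The 9 genes, the gene lists and the autosomes called uneven were chosen with earlier results of these data known. Reads of ribosomal RNA were discarded by the authors after mapping with bowtie2 2.3.2. They aligned the rest with STAR 2.4.2a to mm10 with strain polymorphisms masked, split fragments by allele with SNPsplit and counted them by strand over whole transcripts, introns included, with featureCounts 1.5.2. The deposited files hold raw fragment counts per gene for all, Cast and Dom fragments. The deposited tables of X-linked allelic ratios, which are fractions made by the authors, hold none of the 9 genes and were read only to check which allele a column is. Masking and unique alignment can lower the count of either allele, and the median Cast share below 50% was left as it was in the shares. A gene's start is given as in the files or RefSeq.

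Total counts of the lines were compared in R 4.3.3 by the two-sided quasi-likelihood test of edgeR 4.0.16, after filterByExpr and TMM scaling. Alleles were compared on Cast and Dom counts with a term per sample and an allele term per line, over genes with at least 10 allelic fragments in more than 80% of samples. TMM scaling of the Cast and Dom columns set the log2 ratio of the typical gene near 0. Adjustment was by Benjamini-Hochberg over all tested genes, at 0.05. Errors of log2 values are the fold change over the root of F. Named genes are the 9, genes of the lists, neighbours within 1 Mb and the 3 genes closest to Peg3 and Snrpn in centred log2 CPM. Every pair of replicates differed by more than counting noise (chi-square per gene of at least 6.51). The step at which replicates were separated is not given in the sources used here, so p-values measure only the spread between these samples, which may be technical. Same-numbered replicates of the lines deviated together (correlations 0.329, 0.275 and 0.466 over 15186 genes), so the number was used as a block in an alternative, though other numbers of the same set correlated as much (0.505 for iXist-ChrX-Dom 4 and iXist-ChrX-Cast 3). The set parts replicates 1 and 2 from 3 and 4 after the naming of the files, and the labels state no batch. In the allelic test the sample terms contain the block. For iXist-ChrX-Cast replicates 1 and 2 the clone is spelled differently in file names than in the labels, and the labels were followed. Intervals are 95% Wilson intervals and cover counting error only, since fragments carried no molecular identifiers.

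Tested on simulated data with 200 genes changed 2-fold, edgeR recovered 65.0% for total counts among 15034 genes (6.47% of calls false). It recovered 87.0% for the alleles in iXist-ChrX-Dom among 12832 (2.79% false) and 66.5% for the difference among 12839 (5.0% false). The simulated samples held no difference between the sets, and the alleles of all but the changed genes were equal. In these data 30.3% of genes differed between the sets and 57.1% between the alleles in iXist-ChrX-Dom, so the rates may not carry over. Alternatives were DESeq2 1.42.0, limma 3.58.1 on log2 odds with 0.5 fragments added, other scalings and filters, the block, the set, fewer replicates and leaving out each sample. Shares and figures were made in Python 3.11.15 with pandas 2.3.3, numpy 2.4.6, matplotlib 3.10.9 and scipy 1.17.1. Promoters are from RefSeq, in whose table all 9 genes were found.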

Additional observations from a re-analysis of the deposited data

How the results depend on the processing

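The Cast excess of Peg3 and the Dom excess of Snrpn passed the test in both lines under each of the 16 alternatives, at log2 ratios of 0.66 to 1.00 and -3.59 to -2.90, and so did the Cast excess of Usp29 in iXist-ChrX-Cast (0.83 to 1.30). The number of the 9 genes called in total counts was 0, and 1, Zim1, with DESeq2, with the replicate block, with the set as a covariate and within replicates 1 and 2 alone, and 0 to 1 when each sample was left out. The block changed no other call. The number of genes called for an allele in iXist-ChrX-Dom was 4, and 2 with limma, DESeq2, the same library size for both alleles and without replicates 3 and 4 of that line, and 2 to 4 with a sample left out. In iXist-ChrX-Cast it was 3 to 4. Of 17 settings Ube3a passed in 6 and Usp29 in 9 in iXist-ChrX-Dom, and Ube3a in 11 in iXist-ChrX-Cast. The number called for a difference between the lines was 0, and 1, Usp29, with at least 1 allelic fragment, and 0 to 1 with a sample left out. Signs turned for the following values. The log2 fold change of total counts was 0.029 for Usp29 and 0.0083 for Ube3a under the block, 0.031 for Usp29 with the set, 0.16 for Usp29 and 0.022 for Peg3 within replicates 1 and 2, and 0.30 for Usp29 and 0.042 for Ube3a without iXist-ChrX-Dom replicates 3 and 4. With a sample left out it was -0.091 to 0.022 for Peg3, -0.25 to 0.11 for Usp29 and -0.20 to 0.041 for Ube3a. The log2 ratio of Ube3a was -0.042 in iXist-ChrX-Dom cells and -0.031 in those of iXist-ChrX-Cast with the same library size for both alleles, which by its construction sets a share of 50% to 0. For Zim1 in iXist-ChrX-Cast it was -0.010 to 0.74 with a sample left out. The difference between the lines for Zim1 was 0.35 within replicates 1 and 2 and -0.53 to 0.22 with a sample left out, and for Ube3a -0.056 to 0.019. Other causes were not tested. Over all genes the calls in total counts ran from 18 (without iXist-ChrX-Cast replicate 2) to 2398 (with the set), against 443. Over all tested genes the allelic calls were 5776 to 7970 in iXist-ChrX-Dom, against 7379. Depth limits Ndn, Magel2, Mkrn3 and Peg12, which 14 to 88 allelic fragments leave outside the allelic test.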
